A study of Homo sapiens with 6 samples.

Results

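The genes described here are 9 complement components and regulators, namely C1R, C1S, C3, C5, CFB, CFI, CD46, CD55 and CD59. They were chosen by name, as the rows of the deposited count table whose gene symbol equals one of these symbols, and they make up 9 of 30230 genes in that table. Polyadenylated RNA of A549, an established line of human lung adenocarcinoma, was sequenced in 6 libraries. The cells of 3 libraries received a negative control (NC), and those of the other 3 had FSCN1 silenced (siFSCN1). FSCN1 encodes fascin, a protein that bundles actin filaments. The treatment label of the NC samples names a control plasmid, while the methods of the study name a scrambled siRNA, and they describe 1 siRNA against FSCN1 as the one used for sequencing. All 6 libraries therefore came from 1 cell line, and the effect of the siRNA on FSCN1 and any other effect of that siRNA cannot be told apart.

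Complement is a cascade of plasma proteases and their substrates. In the classical pathway C1q bound to a target activates the protease C1r, which activates C1s, and C1s cleaves C4 and C2 to build an enzyme that splits C3. The alternative pathway reaches C3 through factor B and factor D, and both routes lead to cleavage of C5 and to the membrane attack complex. Host cells are protected by factor I, which inactivates C3b and C4b with the help of cofactors, and by the membrane proteins CD46, CD55 and CD59. The liver makes most complement protein in plasma, and epithelial cells of the lung are known to make several components as well.

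The libraries held between 27967301 and 36560919 counts. FSCN1 fell to 6.75% of its NC level, from 46.1 FPKM ± 1.13 (SD, n = 3) to 3.49 FPKM ± 0.860 (SD, n = 3), with a log2 fold change of -3.89 and an adjusted p of 8.1e-16. FPKM, fragments scaled by the authors to gene length and mapped fragments, is a level per length and is used here to compare genes. Differences between groups were tested on the counts with edgeR's quasi-likelihood test after TMM scaling, with p-values adjusted by the Benjamini-Hochberg method over 17076 genes. TMM scaling factors ran from 0.933 to 0.942 in NC and from 1.05 to 1.08 in siFSCN1, so that ratios of FPKM and fitted fold changes differ. The study calls the replicates biological without naming separate cultures, and the p-values measure the spread between these libraries.

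Silencing of FSCN1 was followed by higher transcript levels of the secreted complement proteins, while the 3 membrane regulators moved little. C1S, C3, C5 and CFI rose at least 2-fold, C1R rose 1.68-fold and CD59 1.12-fold, CD46 fell to 0.821 of its NC level, and CD55 did not pass the test. CFB was too low to be tested. Of the 8 members that passed the low-count filter, 6 were higher and 1 was lower at an adjusted p under 0.05, beside 35.1% of all tested genes higher and 33.2% lower. The background of changed genes is thus large, at 68.3% in either direction. At a fold change of at least 2, 4 of 8 members were higher and 0 lower, beside 11.7% and 4.85% of all tested genes. The median log2 fold change of the 8 members was 0.94, and that of all tested genes was 0.03 with quartiles of -0.37 and 0.51. CPM, counts scaled to library size after TMM, did not overlap between the groups for 7 of the 8 members, beside 71.3% of all tested genes, and 6 of these were higher in siFSCN1, beside 36.8%.

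Rises were more frequent among genes of low level, and the part of the low-count filter in this was not tested. The filter asks for 3 libraries over a minimum. Of the tested genes, 1267 reached it in all siFSCN1 libraries but not in all NC libraries, and 303 the reverse. All 8 tested members reached it in both groups. Of the 5969 tested genes with a mean below 1 FPKM, 24.9% rose at least 2-fold, and CFI belongs to this class. Of the 3649 genes between 5 and 20 FPKM, which include C1R, C3, C5, CD46, CD55 and CD59, 2.11% rose at least 2-fold and 5.12% fell at least 2-fold. C1S lay among the 1349 genes between 20 and 100 FPKM, of which 1.78% rose at least 2-fold. The mean is over all 6 libraries, so a gene's own rise can move it to a higher class. In NC alone C1S was at 9.98 FPKM and C5 at 3.31 FPKM. Of the 5788 genes between 1 and 5 FPKM, 7% rose at least 2-fold. The split of 2-fold changes over all genes depended on scaling, with 1991 higher and 829 lower after TMM and 2637 higher and 510 lower on library totals.

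**Figure D1:**
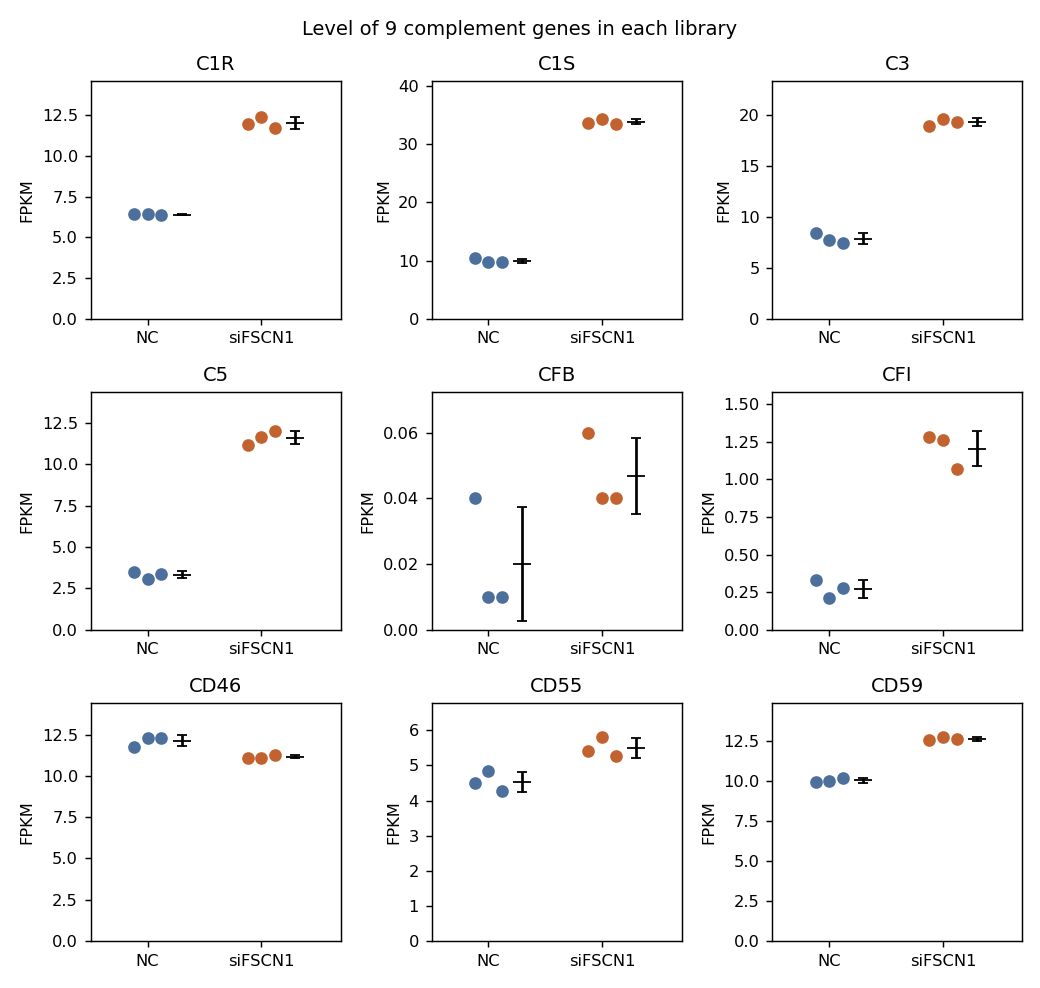
Deposited FPKM of each of the 9 genes in the 3 NC libraries (blue) and the 3 siFSCN1 libraries (orange), with a linear axis from 0 that differs between panels. Black marks are the group mean with its SD (n = 3), and the widest separations are those of C1R, C1S, C3, C5 and CFI, with C1S between 33.53 and 34.33 FPKM in siFSCN1 and no NC library above 10.38 FPKM.

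C1R and C1S, the paired proteases of the C1 complex, both rose, with 95% confidence intervals of the fold change that did not overlap. C1S (ENSG00000182326.15, GRCh38 chromosome 12, 6988259 to 7071032, plus strand) had FPKM values of 10.38, 9.80 and 9.76 in NC and 33.74, 34.33 and 33.53 in siFSCN1. All 3 siFSCN1 libraries lay above all NC libraries. The fitted fold change was 3.02 (95% confidence interval 2.85 to 3.22, adjusted p 1.8e-15 by edgeR). C1R (ENSG00000159403.18, GRCh38 chromosome 12, 7080214 to 7092540, minus strand) had FPKM values of 6.41, 6.41 and 6.38 in NC and 11.99, 12.40 and 11.70 in siFSCN1. Again the groups did not overlap, and the fold change was 1.68 (95% confidence interval 1.56 to 1.80, adjusted p 1.7e-10 by edgeR). These neighbours lie 9182 bases apart and are read in opposite directions. Within a library the log2 ratio of C1R to C1S counts was -0.85, -0.77 and -0.77 in NC and -1.65, -1.62 and -1.67 in siFSCN1. The ratio fell by 0.85 on the log2 scale, and the two-sided p was 0.1 in an exact permutation test, the lowest value possible with 3 libraries per group, and 0.14 after adjustment over the 7 ratios tested. C1RL, a protease related to C1r that borders C1R and shares 672 exonic bases with it on the same strand, rose with a log2 fold change of 1.69 (SE 0.062, adjusted p 8.4e-14), so reads of C1R and C1RL may be partly shared. LPCAT3, which overlaps 30219 bases of C1S on the opposite strand but none of its exonic bases, had a log2 fold change of -0.05 (SE 0.051, adjusted p 0.399).

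Promoter sequences from RefSeq (GRCh38.p14, 250 bases before the annotated start, 5′ to 3′ on the strand of the gene) matched 7 of the 9 members, and C1S and C3 were not matched. They were searched on both strands, with the first 50 transcribed bases, for the letters of 5 inducible motifs. These were STAT (TTCNNNGAA, in 7.66% of all 35116 promoters), ISRE (by name, 3.57%), AP-1 (TGANTCA, 7.71%), C/EBP (TTGCNNAA, 10.5%) and NF-kappaB (by name, 5.91%). The 2 annotated starts of C1R are shown as the promoters of a rising protease of the C1 complex, with STAT and C/EBP letters in capitals, at chr12:7092446-7092695 and chr12:7091894-7092143 on the minus strand.
C1R start 1: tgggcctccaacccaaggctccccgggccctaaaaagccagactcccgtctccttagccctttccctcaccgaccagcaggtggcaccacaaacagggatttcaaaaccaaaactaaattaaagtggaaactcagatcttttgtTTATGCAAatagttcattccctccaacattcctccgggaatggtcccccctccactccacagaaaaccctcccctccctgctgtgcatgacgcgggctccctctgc
C1R start 2: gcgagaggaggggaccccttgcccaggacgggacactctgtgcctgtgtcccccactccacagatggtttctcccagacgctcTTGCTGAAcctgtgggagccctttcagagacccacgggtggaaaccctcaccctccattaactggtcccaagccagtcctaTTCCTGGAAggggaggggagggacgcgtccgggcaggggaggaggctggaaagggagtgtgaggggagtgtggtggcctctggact
Start 1 holds C/EBP letters at -106 to -99 from the start, and start 2 holds C/EBP letters at -167 to -160 and STAT letters at -86 to -78. A match describes letters in the window and is no measurement of binding.

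C3, the central component whose cleavage opsonises targets and releases an anaphylatoxin, more than doubled. C3 (ENSG00000125730.17, GRCh38 chromosome 19, 6677704 to 6730562, minus strand) had FPKM values of 8.43, 7.73 and 7.42 in NC and 18.90, 19.67 and 19.36 in siFSCN1. The lowest siFSCN1 library lay far above the highest NC library, and the fold change was 2.19 (95% confidence interval 2.04 to 2.36, adjusted p 8.5e-13 by edgeR). C3 ranked 1625 of 17076 genes from the largest rise. Its neighbour TNFSF14, a TNF family ligand 7116 bases away, had a log2 fold change of 4.95 (SE 0.416, adjusted p 6.1e-09). The level of TNFSF14, and whether it reached the low-count minimum in both groups, were not examined, so no change is read from it. GPR108, which overlaps C3 on the other side, had a log2 fold change of 0.43 (SE 0.050, adjusted p 4.8e-07).

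C5, whose cleavage starts the membrane attack complex and releases the strongest anaphylatoxin, rose with a larger fitted fold change than C3. C5 (ENSG00000106804.8, GRCh38 chromosome 9, 120932987 to 121075195, minus strand) had FPKM values of 3.48, 3.07 and 3.39 in NC and 11.18, 11.63 and 12.02 in siFSCN1. The groups did not overlap, and the fold change was 3.12 (95% confidence interval 2.86 to 3.39, adjusted p 5.1e-14 by edgeR). The log2 ratio of C3 to C5 counts went from 1.59 ± 0.105 (SD, n = 3) to 1.08 ± 0.0403 (SD, n = 3), a difference of -0.51 with an exact permutation p of 0.1 (0.14 adjusted over the 7 ratios). CNTRL, a centrosomal protein gene that overlaps 408 exonic bases of C5 on the opposite strand, rose as well (log2 fold change 1.29, SE 0.151, adjusted p 4.9e-07), and the strand setting of the counting was not stated. None of the 5 motifs was found in the window of C5 start 1, at chr9:121074866-121075115 on the minus strand, which is shown beside those of C1R as a strongly raised gene without these letters.
C5 start 1: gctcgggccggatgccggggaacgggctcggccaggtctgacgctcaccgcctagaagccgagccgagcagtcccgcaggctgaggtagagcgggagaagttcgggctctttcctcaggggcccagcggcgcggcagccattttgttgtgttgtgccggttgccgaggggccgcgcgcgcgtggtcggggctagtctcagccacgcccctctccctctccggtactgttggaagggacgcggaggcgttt

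CFB and CFI are proteases with opposite roles, since factor B forms the enzyme that amplifies C3 cleavage and factor I ends it. CFI (ENSG00000205403.14, GRCh38 chromosome 4, 109731008 to 109802150, minus strand) was low, with FPKM values of 0.33, 0.21 and 0.28 in NC and 1.28, 1.26 and 1.07 in siFSCN1. The groups did not overlap, and the fold change of 3.89 (95% confidence interval 3.09 to 4.91, adjusted p 3.7e-09 by edgeR) was the largest of the members, with an interval that overlaps those of C5 and C1S. CFB (ENSG00000243649.9, GRCh38 chromosome 6, 31945650 to 31952086, plus strand) held only 7, 2 and 3 counts in NC and 11, 7 and 7 in siFSCN1. In CPM, NC replicate 1 (0.2423) lay above siFSCN1 replicates 2 and 3 (0.2125 and 0.206), so the groups overlapped. Without the filter CFB had a log2 fold change of 0.84 with an adjusted p of 0.354.

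The rows of CFB and CFI do not hold all reads that their exons can give. A gene model annotated as a readthrough (ENSG00000244255.5) shares 2249 of its 4069 exonic bases, or 55.3%, with CFB on the same strand. Its row held 175, 129 and 194 counts in NC and 609, 562 and 588 in siFSCN1, many times those of CFB itself. The readthrough row rose with a log2 fold change of 1.64 (SE 0.105, adjusted p 1.3e-10), and its sum with CFB gave 1.63. Reads of both rows cannot be told apart on shared exons, so the level of CFB is uncertain. The other exonic bases of the model lie outside the exons of CFB, so not all counts of its row need come from CFB. Whether the model covers exons of C2, which overlaps CFB by 24 bases, was not examined, so the C2 counts given below may be incomplete. A second readthrough model (ENSG00000285330.1) shares 65.5% of its exonic bases with CFI and held 100, 65 and 114 counts in NC and 413, 405 and 408 in siFSCN1. Its log2 fold change was 1.96 (SE 0.128, adjusted p 1.8e-10), equal to that of CFI to 2 decimals. A further model (ENSG00000284969.1) shares 66% of its exonic bases with CD59 and had a log2 fold change of 0.09 (SE 0.048, adjusted p 0.1), and its sum with CD59 gave 0.14 (adjusted p 0.0025).

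**Figure D2:**
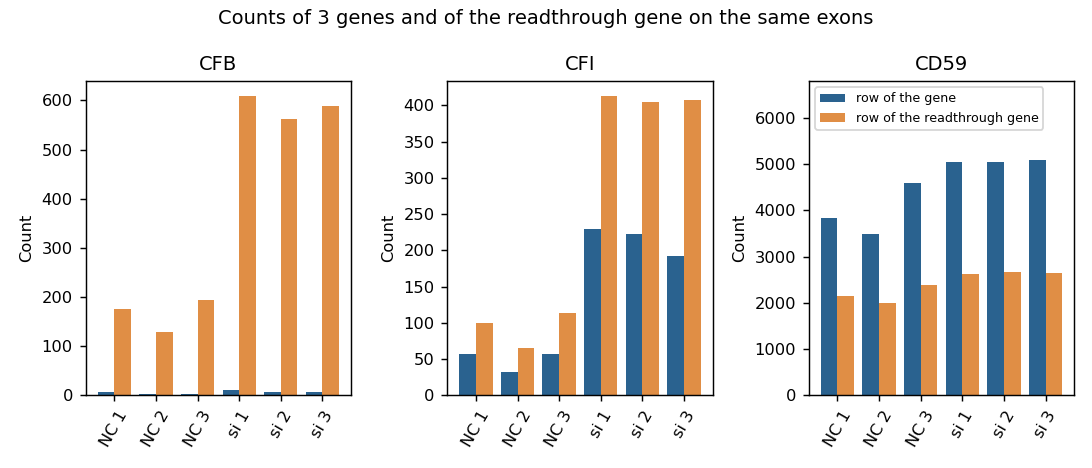
Counts per library in the row of CFB, CFI and CD59 (blue) and in the row of the readthrough gene that shares part of its exons with it (orange), for NC 1 to 3 and siFSCN1 1 to 3 (si), with axes from 0 that differ between panels. The readthrough row held most counts at CFB and CFI, as at 609 against 11 for CFB in siFSCN1 1, and fewer counts than the gene at CD59.

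The promoter of CFB (chr6:31945845-31946094, plus strand) is shown because it holds both interferon-related motifs, ISRE letters at -140 to -131 and STAT letters at -92 to -84, in capitals. That of CFI (chr4:109802000-109802249, minus strand) is shown for contrast and holds none of the 5 motifs.
CFB start 1: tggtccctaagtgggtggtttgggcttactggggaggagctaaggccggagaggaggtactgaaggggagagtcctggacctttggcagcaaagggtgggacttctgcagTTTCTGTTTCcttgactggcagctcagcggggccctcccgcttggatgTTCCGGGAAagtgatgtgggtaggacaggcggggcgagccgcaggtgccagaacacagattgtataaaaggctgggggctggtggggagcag
CFI start 1: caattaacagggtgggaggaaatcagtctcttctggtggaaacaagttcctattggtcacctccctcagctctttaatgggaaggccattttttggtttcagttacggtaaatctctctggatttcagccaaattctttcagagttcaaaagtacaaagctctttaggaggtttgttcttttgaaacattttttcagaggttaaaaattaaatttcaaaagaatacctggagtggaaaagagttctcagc
The CFI promoter held 38% G and C, beside 60% at CFB, 69.2% at C5 start 1 and 34.8% at C5 start 2.

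CD46, CD55 and CD59 guard host membranes at different steps. CD46 is a cofactor of factor I, CD55 speeds the decay of the enzymes that split C3 and C5, and CD59 blocks the last step of the membrane attack complex. CD55 and CD59 are held by a GPI anchor, and CD46 spans the membrane. CD46 (ENSG00000117335.20, GRCh38 chromosome 1, 207752037 to 207795513, plus strand) had FPKM values of 11.74, 12.31 and 12.31 in NC and 11.10, 11.11 and 11.28 in siFSCN1. All siFSCN1 libraries lay below all NC libraries by a small margin, and the fold change was 0.821 (95% confidence interval 0.775 to 0.870, adjusted p 5e-06 by edgeR). CD59 (ENSG00000085063.17, GRCh38 chromosome 11, 33703010 to 33736479, minus strand) had FPKM values of 9.93, 10.01 and 10.20 in NC and 12.55, 12.78 and 12.60 in siFSCN1. The groups did not overlap, although part of that FPKM gap came from scaling, and the fold change was 1.12 (95% confidence interval 1.06 to 1.19, adjusted p 0.0009 by edgeR). CD55 (ENSG00000196352.16, GRCh38 chromosome 1, 207321519 to 207386804, plus strand) had FPKM values of 4.49, 4.83 and 4.27 in NC and 5.40, 5.81 and 5.28 in siFSCN1. Its CPM values overlapped, at 30.64 to 34.94 in NC and 34.14 to 37.92 in siFSCN1, and the fold change of 1.08 had a 95% confidence interval of 0.993 to 1.18 (adjusted p 0.095 by edgeR). On library totals, where the median of all genes was 0.22, the log2 fold changes were 0.30 for CD55 (adjusted p 0.000208), 0.35 for CD59 (0.17 after TMM) and -0.10 for CD46 (-0.28 after TMM). CD55 also passed without NC replicate 2 (log2 fold change 0.15, adjusted p 0.0421). CD46 overlaps 797 exonic bases of MIR29B2CHG on the opposite strand. The promoter windows of CD46 and CD55 held none of the 5 motifs, and the 4 starts of CD59 held STAT, C/EBP or AP-1 letters.

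Ratios within a library compare the membrane regulators without any scaling. The log2 ratio of CD46 to CD59 counts was -0.04, 0.02 and -0.01 in NC and -0.45, -0.48 and -0.44 in siFSCN1, a difference of -0.45. That of CD55 to CD46 differed by 0.40, and both gave an exact permutation p of 0.1 (0.14 adjusted over the 7 ratios). CD55 to CD59 differed by -0.05 (exact p 0.7, adjusted 0.817). In each siFSCN1 library CD46 counts were thus below those of CD59, which they about equalled in NC.

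**Figure D3:**
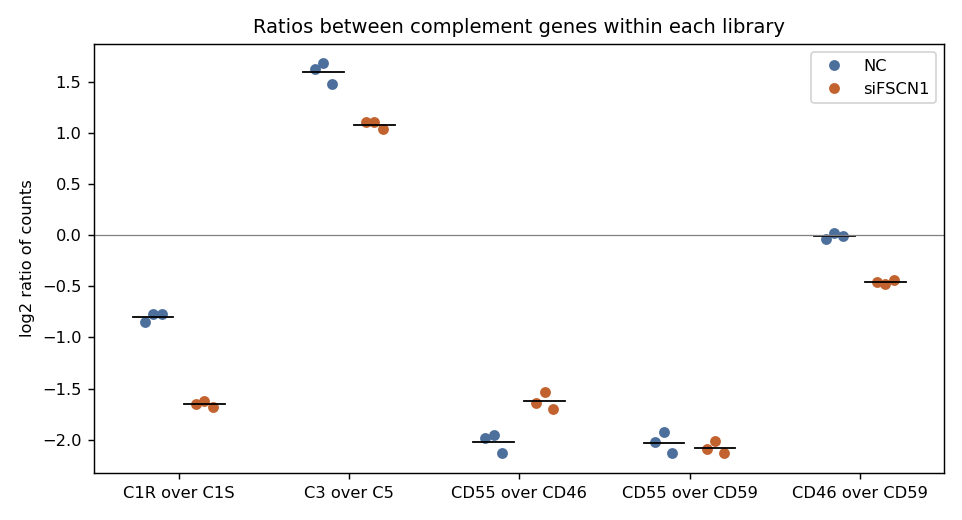
The log2 ratio of the counts of 2 members within each library, for 5 of the 7 pairs tested (those with CFB are left out), with NC in blue, siFSCN1 in orange and a black line at the group mean (n = 3). C1R over C1S, C3 over C5 and CD46 over CD59 are lower in siFSCN1, by 0.85, 0.51 and 0.45, CD55 over CD46 is higher, and CD55 over CD59 overlaps between the groups.

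The order of the members by level changed with silencing. In NC the order from the highest FPKM was CD46 (12.1), CD59 (10.05), C1S (9.98), C3 (7.86), C1R (6.40), CD55 (4.53), C5 (3.31), CFI (0.273) and CFB (0.0200), and only the ranges of CD59 and C1S overlapped among neighbours. In siFSCN1 it was C1S (33.9), C3 (19.3), CD59 (12.6), C1R (12.03), C5 (11.6), CD46 (11.2), CD55 (5.50), CFI (1.203) and CFB (0.0467). There C1R overlapped C5 and C5 overlapped CD46. The summed FPKM of the 9 genes was 54.5 ± 0.621 in NC and 107 ± 1.48 in siFSCN1 (SD, n = 3). The 6 secreted proteins made up 51.0% ± 1.39 of that sum in NC and 72.7% ± 0.0575 in siFSCN1 (SD, n = 3), with sums of 27.8 and 78.1 FPKM. The 3 membrane regulators summed to 26.7 FPKM ± 0.500 in NC and 29.3 FPKM ± 0.348 in siFSCN1. These sums carry no TMM scaling, so the small rise of the membrane sum is not read as a change. After TMM, mean CPM went from 132.8 to 109.1 for CD46, from 32.8 to 35.48 for CD55 and from 133.4 to 149.7 for CD59. C1S alone went from 18.3% to 31.5% of the sum of the 9 genes, whereas C1R stayed near 11.7% and 11.2%. The order, sums and shares use the row of each gene alone. They leave out the readthrough rows at CFB, CFI and CD59, so the levels of these 3 genes are uncertain.

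**Figure D4:**
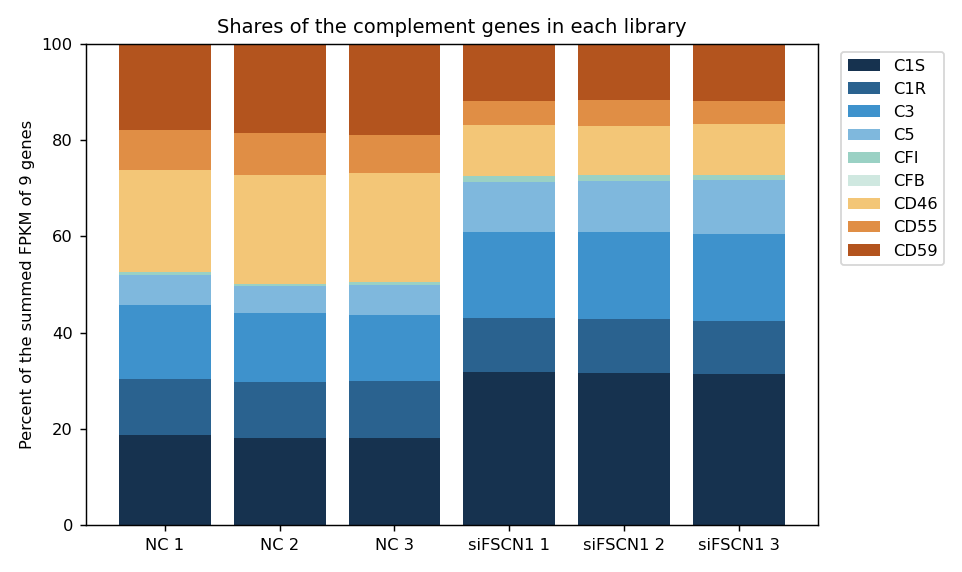
Share of each of the 9 genes in their summed FPKM, in percent, as a stacked bar per library, with the secreted proteins in blue and green below and the membrane regulators in yellow to brown above. The secreted share is between 50.07% and 52.63% in the NC libraries and between 72.65% and 72.76% in the siFSCN1 libraries. Readthrough rows are left out.

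Other complement components were mostly absent from these cells. Of 22 further components listed, 15 had a row, and only CFD reached the low-count minimum in both groups. CFD, the protease that cleaves factor B, had FPKM values of 29.09, 24.31 and 27.16 in NC and 40.67, 36.89 and 32.84 in siFSCN1 (log2 fold change 0.29, adjusted p 0.0019 by edgeR), and its CPM overlapped between the groups. The counts of C2 in NC were 11, 5 and 12 and in siFSCN1 28, 19 and 19. Those of C4A were 4, 0 and 3 in NC and 15, 10 and 16 in siFSCN1, and those of MASP2 4, 1 and 5 in NC and 12, 29 and 16 in siFSCN1. C2, C4A, MASP2 and C8G entered the test only through the siFSCN1 libraries, so no change is read from them. C4A and C4B are near-identical copies, so the C4A row is uncertain.

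Several further regulators of complement rose. Of 20 listed, 17 had a row and 8 reached the minimum in both groups, with a median log2 fold change of 1.68. Of these 8, 7 were higher and 1 was lower, beside 35.1% and 33.2% of all tested genes. By at least 2-fold 5 were higher and 0 lower, beside 11.7% and 4.85% of all tested genes, which include genes that missed the minimum in a group. C4BPA, a cofactor for C4b cleavage, had FPKM values of 0.55, 0.46 and 0.33 in NC and 1.61, 1.54 and 1.65 in siFSCN1. Its groups did not overlap, and it rose by 1.68 on the log2 scale (SE 0.176, adjusted p 1.2e-07 by edgeR). CPN1, a subunit of the carboxypeptidase that inactivates anaphylatoxins, had 5, 3 and 7 counts in NC and 48, 63 and 42 in siFSCN1. CPN1 and SUSD4, a membrane inhibitor, entered the test only through the siFSCN1 libraries, so no change is read from them. VTN and CLU, which keep membrane attack complexes soluble, had log2 fold changes of 0.71 (adjusted p 2e-06) and 0.10 (adjusted p 0.023), and the call of CLU was lost without NC replicate 1, 2 or 3 or siFSCN1 replicate 1 or 2 (0.08, 0.08, 0.10, 0.08 and 0.08). C1QBP, a mainly mitochondrial protein that binds C1q, fell by 0.82 on the log2 scale (adjusted p 6.3e-13). SERPING1, the inhibitor of C1r and C1s, stayed at or below 0.05 FPKM in every library and was not tested.

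**Figure D5:**
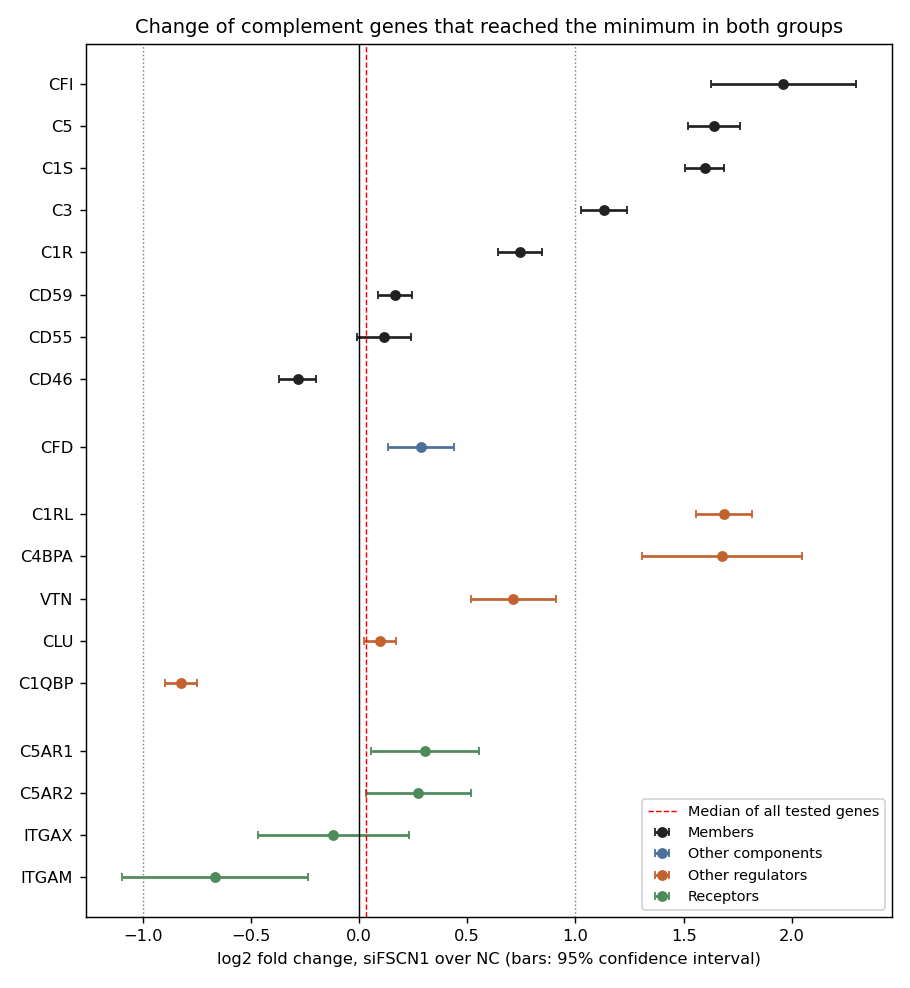
Fitted log2 fold change (siFSCN1 over NC) with its 95% confidence interval for the 8 tested members and for other complement genes, by class, that reached the low-count minimum in both groups, with dotted lines at 2-fold and a red dashed line at the median of all tested genes. CFI, C5, C1S and C3 lie above the upper 2-fold line and CD59, CD55 and CD46 near 0, while of the other genes shown C1RL (1.69) and C4BPA (1.68) are the highest and C1QBP (-0.82) is the lowest.

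Receptors for complement fragments were low. Of 9 listed, 8 had a row and 4 reached the minimum in both groups, with a median log2 fold change of 0.08. Of these 4, 2 were higher and 1 lower, beside 35.1% and 33.2% of all tested genes. C5AR1, the main receptor of the C5 anaphylatoxin, had FPKM values of 1.77, 1.49 and 1.95 in NC and 2.60, 2.32 and 2.34 in siFSCN1 (log2 fold change 0.31, adjusted p 0.03 by edgeR). C5AR2 had 0.27 (adjusted p 0.044) and ITGAM -0.67 (adjusted p 0.0077), the latter below 1 FPKM. ITGB2 entered the test only through the siFSCN1 libraries. C5AR1 lost its call without NC replicate 1 (0.32), NC replicate 2 (0.20) or siFSCN1 replicate 1 (0.25), and ITGAM without NC replicate 2 (-0.45). C5AR2 lost it without NC replicate 2 or 3 (0.23 and 0.20) or siFSCN1 replicate 1 or 2 (0.23 and 0.25). ITGAX had -0.12 (adjusted p 0.54). The receptor of the C3 anaphylatoxin, C3AR1, was at 0.01 FPKM or less.

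The 2 GPI-anchored regulators depend on the enzymes of anchor synthesis. Of 25 such genes tested, 15 were higher and 5 lower (20 and 3 on library totals), beside 35.1% and 33.2% of all tested genes. By at least 2-fold 1 changed in each direction, beside 11.7% higher and 4.85% lower. Their median log2 fold change was 0.19. DPM2 and PIGH, which act early in the pathway, fell by 1.28 and 0.94 on the log2 scale, and PIGV and PGAP3 rose by 0.71 and 0.55. Of 7 proteins of the thioester family of C3, only CD109 reached the minimum in both groups, and it rose (log2 fold change 0.44, adjusted p 2e-06), and A2M was at or below 0.02 FPKM.

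Many complement genes belong to the acute-phase response of the liver. Of 16 acute-phase genes with a row, 7 reached the minimum in both groups, with a median log2 fold change of 1.37. Of these 7, 6 were higher and 0 lower, beside 35.1% and 33.2% of all tested genes. By at least 2-fold 4 were higher and 0 lower, beside 11.7% and 4.85%. SERPINA1 (a protease inhibitor), CP (a copper carrier) and FGB (a fibrinogen chain) rose by 2.97, 2.18 and 1.93 on the log2 scale. LBP, which binds bacterial lipopolysaccharide, had FPKM values of 0.48, 0.12 and 0.26 in NC and 2.51, 2.04 and 1.97 in siFSCN1 but missed the minimum in 1 NC library. SAA1, a classical acute-phase reactant, had a log2 fold change of -0.06 (adjusted p 0.83) and was chosen after its values were seen. Genes of cytokine signals known to induce complement genes were split, with a median of 0.09 over the 21 that reached the minimum in both groups. Of these 21, 10 were higher and 10 lower, beside 35.1% and 33.2% of all tested genes. IL1B, which entered only through the NC libraries, did not pass. The receptor genes IL6R and LIFR and the factor CEBPD rose by 1.08, 1.05 and 1.01, and the TNF receptor TNFRSF1A fell by 1.67. Chosen after their values were seen, IL6ST and STAT3 rose by 0.90 and 0.59, RELA and NFKB2 fell by 0.87 and 0.98, and IL6 stayed at or below 0.08 FPKM.

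Markers of other cells were compared because complement genes are strongly expressed in liver and fibroblasts. Of 7 hepatocyte markers, APOH and AHSG reached the minimum in both groups and rose, by 1.34 and 2.34 on the log2 scale, while ALB and TTR entered the test only through the siFSCN1 libraries. The summed level of the 7 was 11.4 to 12.7 FPKM in NC and 33.9 to 36.0 FPKM in siFSCN1. Nearly all of that sum was APOH, at 10.74 to 12.22 FPKM in NC and 31.68 to 33.73 FPKM in siFSCN1, while ALB reached 0.23 FPKM and SERPINC1 0.02 FPKM at most. Fibroblast markers summed to 0.48 to 0.56 FPKM in NC and 0.37 to 0.68 FPKM in siFSCN1 (of 2 tested 0 passed with edgeR or DESeq2, and 0 had an unadjusted p under 0.05), and endothelial markers to no more than 0.07 FPKM. Leukocyte markers summed to 3.69 to 3.95 FPKM in NC and 4.56 to 5.70 FPKM in siFSCN1, mostly CD14. Of 3 tested, CD14 was higher (log2 fold change 0.40, adjusted p 0.0053), CD68 was lower (-1.24, adjusted p 0.002) and CD79A did not pass (0.31, adjusted p 0.43), with PTPRC at 0.01 FPKM or less and no row for MS4A1 and TYROBP. Of 10 epithelial markers of A549, all were tested, and 3 were higher and 6 lower, beside 35.1% and 33.2% of all tested genes. CDH1 rose by 1.35, and KRT7, KRT19 and KRT18 fell by 1.19, 1.10 and 0.99 on the log2 scale. The epithelial markers summed to 7530 to 8170 FPKM in NC and 7310 to 7760 FPKM in siFSCN1. The part of these markers in the complement values was not tested, and in bulk RNA fewer cells of a type and less RNA per cell cannot be told apart.

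Profiles over the 6 libraries gave the genes nearest to each member, by Euclidean distance of centred log2 CPM among genes of at least 5 FPKM in a group. TGFB2 was nearest to C5 (distance 0.0859) and second to C1S (0.130), where STX12 was first (0.113). C1RL was second to C5 (0.121). FGB was second to CFI (0.307) after RNASE4 (0.255). C19orf54 and NRBP2 were nearest to C3 (0.0745 and 0.116), BASP1 and RXRB to C1R (0.0377 and 0.0922), BZW1 and TPBG to CD46 (0.0279 and 0.0336), and PREPL and TCEAL4 to CD59 (0.0261 and 0.0296). For CD55 they were the readthrough row on CD59 (0.0884) and SIL1 (0.0886). With 2 groups of 3 libraries such likeness can rest on the difference between the groups alone.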

How the data were processed

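RNA sequencing measured polyadenylated RNA of 6 A549 libraries, grouped by sample title. Per the study's methods, trimmed reads were aligned with HISAT2 (GRCh38) and unique alignments kept, while the labels name TopHat2. The authors deposited raw counts for 30230 genes and FPKM for 29899 genes. The counting program and its strand setting are not given in the sources used here. Here genes were kept by filterByExpr, scaled by TMM and tested with the quasi-likelihood test of edgeR 4.0.16 (R 4.3.3), with no covariate and Benjamini-Hochberg adjustment over 17076 genes. The study used DESeq2, which was run as an alternative (1.42.0), with limma 3.58.1 on FPKM. Ratios of 7 member pairs were compared by exact two-sided permutation over libraries. Identifiers were matched to GENCODE v44 (99.7%), and promoters came from RefSeq. Protein sequences were not used here, and some genes of the regulator list are counted but not reported here by name.

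The members and the 12 gene lists were chosen with earlier results of these data known. List counts were restricted, after seeing the data, to genes reaching the count minimum in every library of both groups. The list counts under alternative processing were not restricted and cover all tested genes of a list. Named genes were the members, tested complement genes, at most 4 genes of each other list by size of change among those of at least 1 FPKM, the neighbours, and the 2 genes of nearest profile. In simulated counts for this comparison over 16781 genes, 84.4% of 96 genes changed by a log2 of 1 and 96.9% of 97 genes changed by 2 were recovered. Few genes were changed there, evenly in both directions, unlike in the data, so these shares do not test the scaling.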

Additional observations from a re-analysis of the deposited data

How the results depend on the processing

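Scaling shifted the median of all genes from 0.03 (TMM) to 0.22 on library totals and 0.15 with upper quartile scaling. It was 0.17 in limma on log2(FPKM + 0.1), another unit and model, and 0.13 without the filter, over more genes. Relative to that median C1S stood at 1.57, CD46 at -0.32 and CD55 at 0.08 both after TMM and on library totals. C1S, C5, C3 and C1R kept their direction and their side of the threshold under all 17 alternatives (of which removal of the abundance trend keeps the p by construction), with log2 fold changes of 1.57 to 1.84, 1.55 to 1.83, 1.08 to 1.35 and 0.71 to 0.93. CFI did so too at 0.79 to 2.15, with 0.79 on log2(FPKM + 1), which understates low genes and took CFI under 2-fold. CD46 ran from -0.31 to -0.07 and CD59 from 0.14 to 0.39. CD55 passed under 6 alternatives, with adjusted p from 0.000208 to 0.435 over all of them, among them upper quartile scaling (0.23), log2(FPKM + 0.1) (0.27), the stricter filter (0.14) and without NC replicate 2 (0.15). CFB gave 0.84 without the filter and 1.63 with the readthrough counts added, an alternative chosen after seeing the data.

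The number of genes changed at least 2-fold was 2820, and 471 on log2(FPKM + 1), with 285 higher and 186 lower. The counts below for the lists beside the members cover all tested genes, also those that reached the minimum in only 1 group. No change is read from them. The stricter filter, which tests fewer genes, left 1 of the other components, 1 of the thioester family, 1 leukocyte marker and 2 hepatocyte markers passing. DESeq2 left 2 receptors, against 4 of 5 tested in the main fit, and 1 endothelial marker passed without the filter. Leaving out 1 library at a time gave 1 to 4 receptors (1 without NC replicate 2, 2 without siFSCN1 replicate 1), 0 to 2 fibroblast markers (2 without siFSCN1 replicate 1) and 7 to 8 members. ITGAX reversed to 0.069 on library totals, 0.021 on log2(FPKM + 0.1) and 0.007 on log2(FPKM + 1). The log2 ratio of C3 to CFB, which rests on 2 to 11 counts of CFB, differed by 0.09 and reversed to -0.51 with the readthrough counts, and ran from -0.37 to 0.40 when 1 library was left out (-0.37 without NC replicate 1, -0.02 without siFSCN1 replicate 2 or 3). The causes of these shifts were not tested.

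Libraries of the same replicate number did not deviate together (r of -0.03, 0.04 and -0.08), so they share only a number. With the replicate block 7 members passed, C3 had a log2 fold change of 1.13 and C1S 1.60, and 2827 genes changed at least 2-fold. The depth of 27967301 to 36560919 counts limits CFB and the components under 0.1 FPKM. Groups of 3 libraries were not tested for outlying libraries.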
